A study of Mus musculus with 2 samples.

Results

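Mir21a, Mir146 (also written Mir146a) and Mir155 are microRNA genes known to be induced by inflammatory signals and in reactive glia. They were chosen by name, and they are 3 of the 2202 microRNA genes counted in the files. The data are microRNA-seq of total RNA from mouse hippocampus, a tissue labelled as a layer of the hippocampus. The mice were 36 days old, male and of the strain B6CASTF1/J, whose genome combines that of C57BL/6J with that of CAST/EiJ, and the labels name no treatment. There is 1 group of 2 libraries, biological replicates 2 and 1, which share 1 donor label and carry different animal numbers in their tissue descriptions. No injured, infected or stimulated tissue was part of the series, so the values describe the level in tissue to which no such treatment is assigned and the difference between its libraries.

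A microRNA is cut from a hairpin in a longer transcript and guides an Argonaute protein to messenger RNAs that pair with its seed, the bases 2 to 8 counted from its 5′ end. Transcription of Mir21a is known to be driven by STAT3, and miR-21 rises in reactive astrocytes after injury and has Pdcd4 among its known targets. Mir146 is transcribed under NF-kB downstream of Toll-like receptors, and miR-146a represses the adaptor proteins Irak1 and Traf6 of the same pathway, a negative feedback. Mir155 is induced in macrophages and microglia by Toll-like receptor ligands, and miR-155 represses Socs1 and Inpp5d, which restrain inflammatory signalling.

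The sequences show what each gene makes and which other genes could be mistaken for it. Both mature arms of each gene are given 5′ to 3′ from RefSeq (GRCm38.p6), with the seed in capitals. The counts are per gene, so the arms of a hairpin cannot be separated.
miR-21a-5p: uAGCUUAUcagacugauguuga
miR-21a-3p: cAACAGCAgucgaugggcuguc
miR-146a-5p: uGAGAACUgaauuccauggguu
miR-146a-3p: cCUGUGAAauucaguucuucag
miR-155-5p: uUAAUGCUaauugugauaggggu
miR-155-3p: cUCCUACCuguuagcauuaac
None of the 6 seeds is shared between the 3 genes. The seed of miR-21a-5p is also that of miR-21c, and the seed of miR-146a-5p is also that of miR-146b-5p. The other 4 seeds occur in no mature sequence of another gene in the RefSeq table. The relatives, with miR-21b added for its name, read as follows.
miR-21b: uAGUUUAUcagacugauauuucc
miR-21c: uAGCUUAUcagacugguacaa
miR-146b-5p: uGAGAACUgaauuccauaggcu
Counted from the 5′ end, miR-146b-5p differs from miR-146a-5p by G18A and U21C over 22 bases, both outside the seed. The change C4U puts miR-21b outside the seed of miR-21a-5p.

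The hairpins show how close these copies come to the genes counted. The RefSeq hairpins are given with the mature arms in capitals, and the sequence and position of all 3 were identical in GENCODE M21, the annotation of the files.
Mir21a: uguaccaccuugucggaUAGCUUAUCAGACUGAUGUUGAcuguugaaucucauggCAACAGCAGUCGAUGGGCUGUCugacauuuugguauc
Mir146: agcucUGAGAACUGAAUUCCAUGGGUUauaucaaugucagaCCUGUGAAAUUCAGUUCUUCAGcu
Mir155: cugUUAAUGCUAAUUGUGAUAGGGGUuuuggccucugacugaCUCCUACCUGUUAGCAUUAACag
The longest stretch that Mir21a shared with any other annotated microRNA gene was 15 bases, with Mir21c, and that of Mir155 was 13 bases. Mir146 shared 21 bases with Mir146b, from upstream of the 5′ mature arm to the base before the change G18A within it. Reads that match several places enter no gene's count, so a short read could be lost from either gene and both counts are uncertain. In the GENCODE M21 transcripts, the mature sequences of Mir21a and Mir155 occurred whole in no gene other than their own and their host, and those of Mir146 in no other gene.

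None of the 3 genes has another microRNA gene close by, while Mir21a and Mir155 lie within host genes. Mir21a (ENSMUSG00000065455.1) lies on the minus strand of chromosome 11 at 86584067 to 86584158 (mm10), within untranslated exon sequence of 1 of the 8 annotated transcripts of Vmp1, which encodes a membrane protein of autophagy. Mir146 (ENSMUSG00000065601.1) lies on the minus strand of chromosome 11 at 43374397 to 43374461 and overlaps no other annotated gene. Mir155 (ENSMUSG00000065397.1) lies on the plus strand of chromosome 16 at 84714140 to 84714204, in an exon of both transcripts of its noncoding host Mir155hg. The nearest annotated microRNA gene was 528846 bases away for Mir21a, 1094552 for Mir146 and 6239591 for Mir155, so none is part of a microRNA cluster. The strand opposite the gene carried 1 count for Mir21a in replicate 2 and 0 in replicate 1, and 0 in both libraries for Mir146 and for Mir155.

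The depth behind these values was 5279877 own-strand counts over all microRNA genes in replicate 2 and 4404040 in replicate 1, or 34.6% and 35.3% of all reads. Multimapping reads, which no gene receives, made up 46.5% and 40.3%. Levels are given as CPM, the count per 1000000 own-strand counts of the library. Where a gene has no count, up to 3 counts remain possible, or 0.568 CPM for replicate 2 and 0.681 CPM for replicate 1. PCR copies were not marked by molecular identifiers, so such limits and all intervals describe counting error alone. Neuronal content was checked with 15 neuronal microRNA genes, of which 12 had 10 or more counts in both libraries. The list was not chosen to tell hippocampus from other brain regions. The genes Mir124a-2 and Mir124a-3, which share 20 bases with their paralogues, had at most 1 count.

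In this hippocampus all 3 genes were detected, in the same order in both libraries: Mir21a was the highest, Mir146 was intermediate and Mir155 was the lowest. Mir21a had 6988 counts in replicate 2 and 11084 in replicate 1, which is 1324 CPM (95% exact binomial interval 1293 to 1355) and 2517 CPM (2470 to 2564). It ranked 89th of the 2202 genes in replicate 2 and 57th in replicate 1, at a mean of 1920 ± 844 CPM (SD, n = 2). The libraries lay far apart for this gene, and replicate 1 was the higher one.

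Mir146 had 3865 counts in replicate 2 and 2791 in replicate 1, or 732 CPM (709 to 755) and 634 CPM (610 to 658). It held rank 114 in both libraries and averaged 683 ± 69.5 CPM (SD, n = 2). Of the 3 genes it was the closest between the libraries, with replicate 2 slightly higher. Mir155 had 150 counts in replicate 2 and 161 in replicate 1, or 28.4 CPM (24.0 to 33.3) and 36.6 CPM (31.1 to 42.7), at a mean of 32.5 ± 5.76 CPM (SD, n = 2). It ranked 265th of the 2202 genes in replicate 2 and 237th in replicate 1. It lay below the median of the 411 genes with 10 or more counts in both libraries, which was 96.0 CPM in replicate 2 and 68.1 CPM in replicate 1, whereas Mir21a and Mir146 lay above it in both. Against the median of the 504 genes with 10 or more counts in the libraries together, 38.0 CPM in replicate 2 and 27.4 CPM in replicate 1, Mir155 was lower in replicate 2 and higher in replicate 1.

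**Figure D1:**
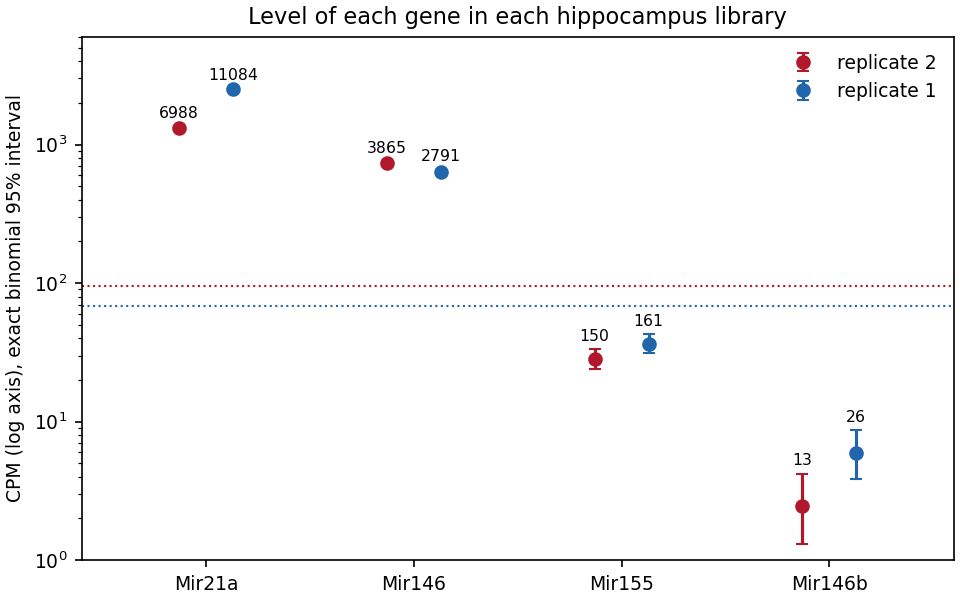
Level in CPM on a log axis of Mir21a, Mir146, Mir155 and the miR-146a relative Mir146b in replicate 2 and replicate 1, with the read count above each point, exact binomial 95% intervals as bars, and dotted lines at the median of the 411 genes with 10 or more counts in both libraries. Mir21a and Mir146 stood above both medians and Mir155 below them, and the lower Mir21a library, at 1324 CPM, was above the higher Mir146 library, at 732 CPM.

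Together the 3 genes took 0.208% of the counts in replicate 2 and 0.319% in replicate 1. Mir21a gave 63.5% of their summed CPM in replicate 2 and 79.0% in replicate 1, Mir146 gave 35.1% and 19.9%, and Mir155 gave 1.36% and 1.15%. Neighbours in the order did not overlap in either library. With 2 libraries the differences between genes were not tested across animals. Capture can differ from one microRNA sequence to another and was not measured, so comparisons between genes are of counts.

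The close relatives were low or undetected. Mir146b (ENSMUSG00000070127.2, in an intron of Mfsd13a at 46342762 to 46342870 of chromosome 19) received 13 counts in replicate 2 and 26 in replicate 1. Mir146, which has the same seed, received 3865 and 2791. Mir21b and Mir21c had 0 counts in both libraries, below which 0.568 CPM in replicate 2 and 0.681 CPM in replicate 1 could go unseen. Of the counts assigned to a gene with the seed of miR-21a-5p, Mir21a therefore held every one.

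Within a library, the counts of 1 member per count of another need no scaling between libraries. Mir21a had 1.81 counts per count of Mir146 in replicate 2 (95% exact binomial interval 1.74 to 1.88) and 3.97 in replicate 1 (3.81 to 4.14). The balance of these genes thus differed between the libraries by 1.14 on the log2 scale, with Mir21a relatively lower in replicate 2 (two-sided Fisher's exact test on read counts, adjusted p = 1.75e-162 over the 3 pairs). Mir21a per Mir155 was 46.6 in replicate 2 (39.6 to 55.1) and 68.8 in replicate 1 (58.9 to 80.9), with an adjusted p of 0.000797 in the same Fisher's exact test. Mir146 per Mir155 was 25.8 in replicate 2 (21.9 to 30.5) and 17.3 in replicate 1 (14.8 to 20.4), again with an adjusted p of 0.000797 by Fisher's exact test. These tests compare the reads of 2 libraries and not animals or conditions. They cover counting error alone and were not repeated with an allowance for other variation between the libraries.

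After scaling to library size, Mir21a and Mir155 were lower and Mir146 was higher in replicate 2. Replicate 2 was set against replicate 1 by an exact binomial test, two-sided and conditional on each gene's total count, with TMM-adjusted library sizes. The 504 genes whose total reached 10 counts were tested, with Benjamini-Hochberg adjustment over all of them. All 3 members passed an adjusted p of 0.05, as did 55.8% of the 504 genes tested and 81.2% of the 313 among them with 100 or more counts, so passing the test does not set the members apart.

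Mir21a was lower in replicate 2, with a log2 ratio of -0.94 (95% exact binomial interval -0.99 to -0.90), and its p was too small for the software to represent and is listed as 0. Of the genes tested, 6.35% had a lower ratio, and 101 of the 504 had a ratio at least as far from 0. Mir146 was higher in replicate 2 by a log2 ratio of 0.19 (0.12 to 0.26, adjusted p = 2.74e-07 in the exact binomial test), and 77.4% of the genes tested lay at least as far from 0. Mir155 was lower in replicate 2 by a log2 ratio of -0.37 (-0.71 to -0.05, adjusted p = 0.0416 in the exact binomial test), and 58.3% lay at least as far from 0. Of the genes tested, 23.2% were called lower and 32.5% higher in replicate 2.

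The test covers counting error, while edgeR put the coefficient of variation between the libraries at 0.430 over the genes tested. When the test allowed for a coefficient of variation of 0.1, Mir21a still passed (adjusted p = 3.61e-05 in the beta-binomial test) and Mir146 and Mir155 did not (0.560 and 0.286), and with 0.3 none of the 3 passed (0.645, 1 and 0.949).

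**Figure D2:**
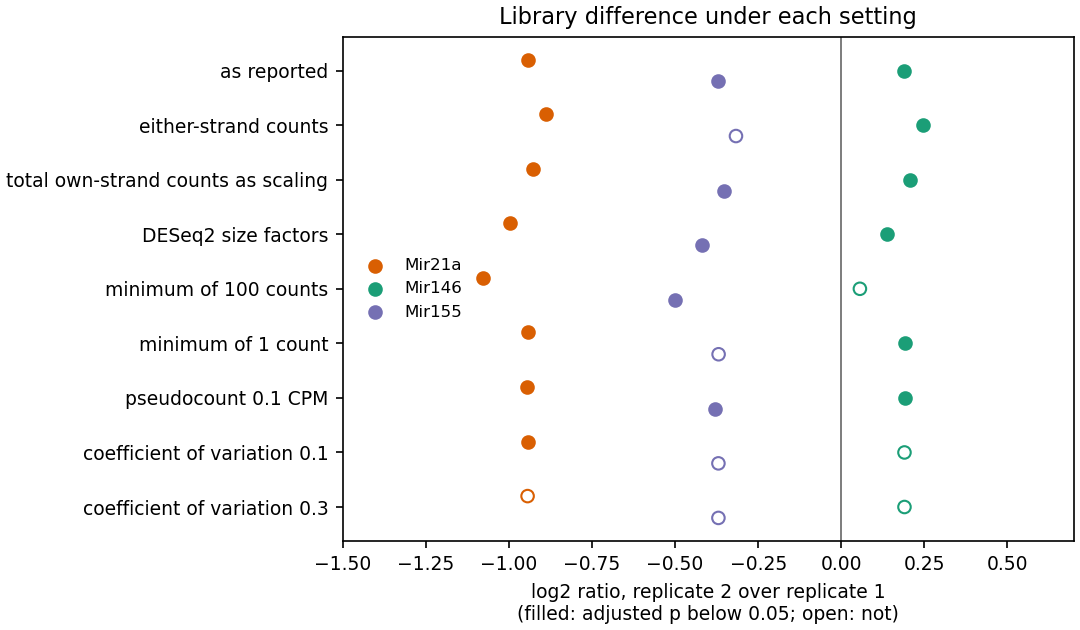
Log2 ratio of replicate 2 over replicate 1 for Mir21a, Mir146 and Mir155 as reported and under each alternative setting, with filled points where the adjusted p is below 0.05 and open points where it is not. Mir21a lay between -1.08 and -0.89 throughout and was open in 1 setting, while Mir146 lost the call in 3 settings and Mir155 in 4.

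By likeness of level in the 2 libraries, measured as the distance in the plane of log2(CPM + 1), the genes nearest to Mir21a were Mir93, Mir383 and Mir1839, at distances of 0.31, 0.31 and 0.38. Mir93 had 1350 CPM in replicate 2 and 2032 CPM in replicate 1, and Mir383 had 1265 and 2040 CPM. Their log2 ratios of replicate 2 over replicate 1 were -0.61 and -0.71, against -0.94 for Mir21a. A shared direction follows from choosing genes by their level in both libraries. Nearest to Mir146 were Mir467d, Mir666 and Gm23450, at 0.10, 0.16 and 0.18, and nearest to Mir155 were Mir3057, Mir122 and Mir679, at 0.25, 0.27 and 0.32. Mir122, a microRNA known for its abundance in liver, had 27.7 CPM in replicate 2 and 30.2 CPM in replicate 1, against 28.4 and 36.6 CPM for Mir155. The count of Mir467d is uncertain, as 14 other genes have a 20-base stretch in common with it. With 2 libraries this likeness is a description of level.

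**Figure D3:**
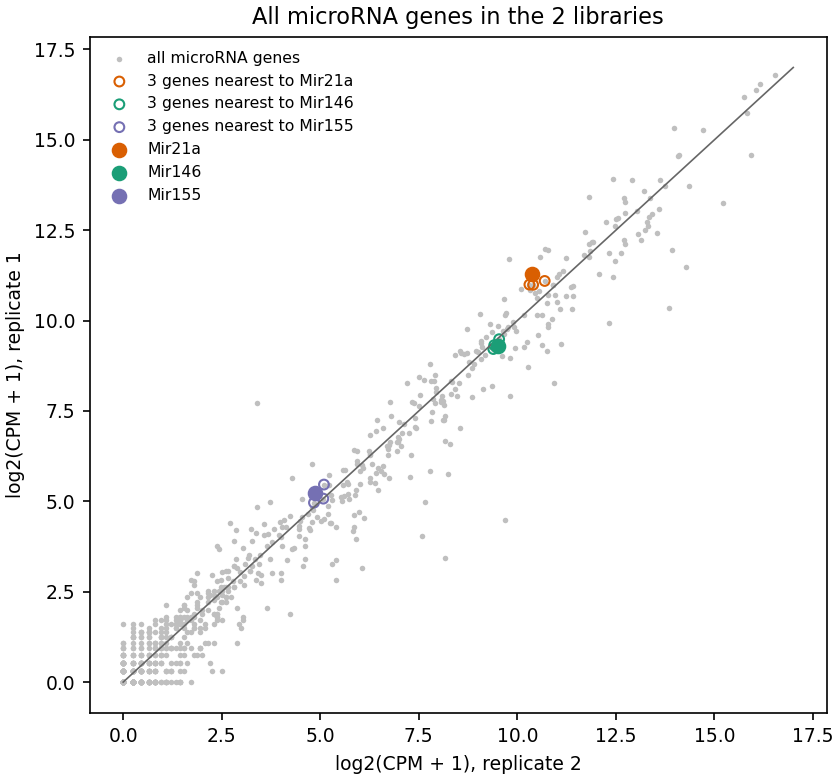
Log2(CPM + 1) of all 2202 microRNA genes in replicate 2 (horizontal) and replicate 1 (vertical), with the line of equal values, the 3 members as filled points and the 3 genes nearest to each as open circles. Mir146 lies close to the line, while Mir21a lies on the replicate 1 side of it at 1324 CPM in replicate 2 and 2517 CPM in replicate 1.

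Other microRNA genes known to respond to inflammatory signals, mostly from work on macrophages and monocytes, also differed between the libraries in both directions. Of 20 listed genes, all tested, 5 were higher and 10 lower in replicate 2 and 5 did not pass, with a median log2 ratio of -0.27 against 0.05 for all genes tested. Those 15 of 20 stand beside 55.8% called among all genes tested and 81.2% among those with 100 or more counts, and the 10 lower beside 23.2% lower among all genes tested. The list as a whole was not tested. Scaling on genes with 100 or more counts, which shifts every log2 ratio by -0.13, gave 4 higher and 11 lower among 16 tested. In that setting 122 of all 313 genes tested were higher and 130 were lower in replicate 2. The highest of the list was Mirlet7i, whose microRNA targets the Toll-like receptor gene Tlr4 in human cells, with 55432 CPM in replicate 2 and 74754 CPM in replicate 1 (log2 ratio -0.45). Mir132, induced by neuronal activity as well as by inflammatory stimuli, followed with 17251 and 23835 CPM (-0.48), and Mir125a with 10861 and 7940 CPM (0.43). Each of these exceeded Mir21a in both libraries. Of the 20 genes, 8 share 20 bases with another gene, Mir146b among them, and their counts are uncertain.

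Cell type markers, of which some leukocyte, astrocyte and neuronal ones are also on the inflammation-responsive list, differed between the libraries too, in both directions. Their counts stand against the same general share of 55.8% called, with 32.5% higher and 23.2% lower in replicate 2. Among the 313 tested genes with 100 or more counts, to which most of the markers belong, 81.2% were called. All 4 leukocyte and microglia genes were higher in replicate 2, and their sum was 5414 CPM in replicate 2 and 3396 CPM in replicate 1. The highest were Mir342 with 4319 and 2507 CPM, Mir150 with 999 and 832 CPM, and Mir142 with 84.1 and 54.0 CPM. Mir223, typical of myeloid cells and named after its values were seen, had 61 counts in replicate 2 and 14 in replicate 1. Mir21a amounted to 24.4% of the leukocyte and microglia sum in replicate 2 and 74.1% in replicate 1, Mir146 to 13.5% and 18.7%, and Mir155 to 0.525% and 1.08%. Most of that sum came from Mir342 in both libraries, so these shares mainly compare each member with that gene. In bulk tissue, fewer cells of a type and less RNA per cell cannot be told apart.

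The astrocyte and reactive glia list, without the members, summed to 14730 CPM in replicate 2 and 10770 CPM in replicate 1, with 2 of 5 genes higher and 1 lower. Its highest gene was Mir29a with 12370 and 8686 CPM, and 4 of the 5 share 20 bases with another gene. The vessel wall list summed to 43835 CPM in replicate 2 and 16250 CPM in replicate 1, mostly from endothelial Mir126a with 37937 and 9729 CPM, and 2 of its 3 tested genes were higher and 1 lower. Mir126b of that list had 0 counts in both libraries. The choroid plexus list summed to 1337 and 713 CPM, with 4 of 5 genes higher and none lower, and the red blood cell list to 113 and 66.8 CPM, with 2 of 3 higher and none lower. The neuronal list summed to 51996 and 43370 CPM, with 10 of 13 tested genes higher and 2 lower, and the oligodendrocyte list to 5662 and 5819 CPM, with 1 of 3 higher and 1 lower. Of the genes listed, 11 of 15 neuronal and 2 of 3 oligodendrocyte ones share 20 bases with another gene. The red blood cell list holds 1 such gene, and the counts of all these genes are uncertain. Scaled on genes with 100 or more counts, 122 of all 313 genes tested were higher and 130 were lower in replicate 2. With that scaling the astrocyte list had 2 higher and 3 lower and the oligodendrocyte list 0 higher and 2 lower. The vessel wall list then had 1 higher and 1 lower and the red blood cell list 2 higher and 1 lower. Only 3 leukocyte and microglia genes reached 100 counts, and all 3 stayed higher. The part of these differences in the values of Mir21a, Mir146 and Mir155 was not tested.

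**Figure D4:**
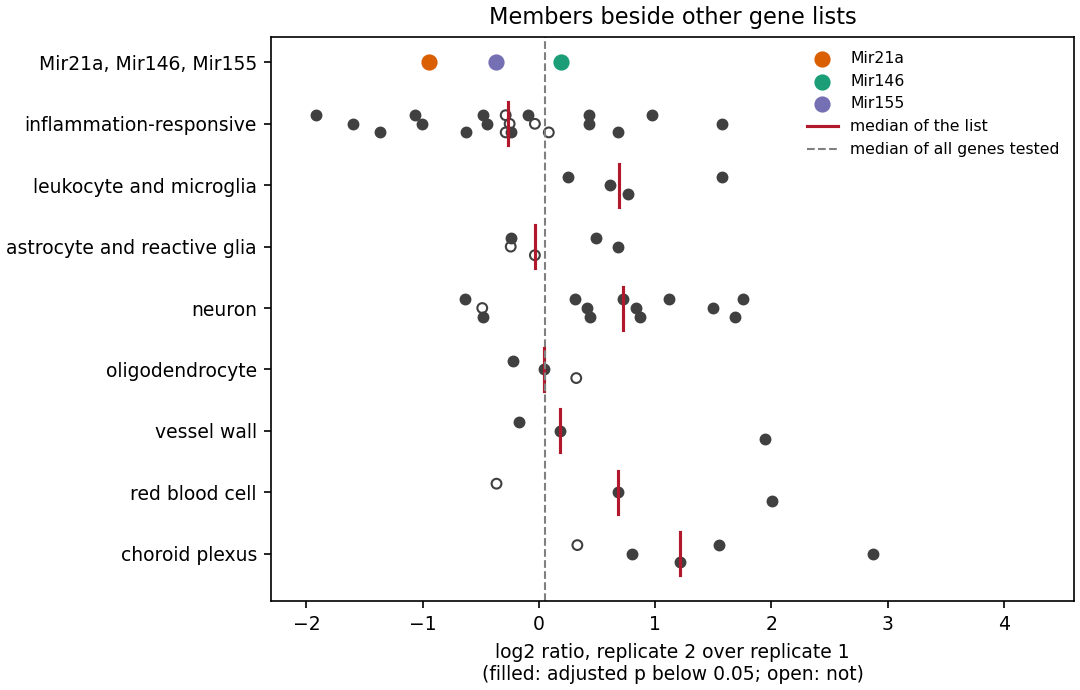
Log2 ratio of replicate 2 over replicate 1 for Mir21a, Mir146 and Mir155 (top line) and for the tested genes of the other lists, filled where the adjusted p is below 0.05 and open where it is not, with a red bar at each list's median and a dashed line at the median of all genes tested. Mir21a at -0.94 lies below each of the 4 leukocyte and microglia genes, whose sum was 5414 CPM in replicate 2 and 3396 CPM in replicate 1.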

How the data were processed

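The authors deposited raw counts per microRNA gene for 2 libraries of 1 group, with mm10 as the assembly and GENCODE M21 as the annotation, per the labels and the notes beside the files. The aligner is not given in the sources used here. No header names the columns. The strand layout was read from the values, and the own-strand column was used. The 65.4% (replicate 2) and 64.7% (replicate 1) of reads on lines without a gene were left out.

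CPM is the count over the own-strand total, times 1000000. The libraries were compared with scipy 1.17.1 and TMM sizes from edgeR 4.0.16 (R 4.3.3; factors 1.01 in replicate 2 and 0.994 in replicate 1), with 1 CPM added to each for log2 ratios. With 1 group there is no contrast for the quasi-likelihood test of edgeR. DESeq2 1.42.0 gave alternative size factors. Calculations used Python 3.11.15 and numpy 2.4.6.

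The members and lists were chosen with earlier results of these data known. Genes named are the members, the 3 nearest to each, genes that share a seed or overlap, and at most the 3 highest of a list. Names outside this rule are marked in the text, except Mir124a-2, Mir124a-3, Mir126b and Mir21b, which are named for having few or no counts or for their name. The replicates share a donor label but carry different animal numbers in their descriptions, and no label says outright that they are separate animals. The p-values cover counting error in the reads of these samples, apart from the settings with a stated coefficient of variation. They measure no spread between animals. Variants of CAST/EiJ can affect mapping, which was not tested.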

Additional observations from a re-analysis of the deposited data

How the results depend on the processing

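Mir21a was lower and Mir146 higher in replicate 2 under all 8 alternatives, and Mir155 was lower in all 8. The calls were less stable. Mir21a lost its call at a coefficient of variation of 0.3 (log2 ratio -0.94, adjusted p = 0.645 in the beta-binomial test). Mir146 lost its call with a minimum of 100 counts (0.056, adjusted p = 0.135 in the exact binomial test), where the scaling shifts by -0.13, and at coefficients of variation of 0.1 and 0.3 (0.19 in both). Mir155 lost its call with either-strand counts (-0.32, adjusted p = 0.0825 in the exact binomial test), where its counts stayed at 150 and 161 and the scaling shifts by 0.055. It also lost its call with a minimum of 1 count (-0.37, adjusted p = 0.0619 in the exact binomial test), where more genes are adjusted over. The same held at coefficients of variation of 0.1 and 0.3 (-0.37 in both). The genes that differed numbered 152 at 0.1 (98 higher and 54 lower in replicate 2) and 14 at 0.3 (13 higher and 1 lower), against 281 reported, and the members that differed numbered 1 and 0. Per 1000000 reads of the whole library, the levels were 674 for Mir21a, 239 for Mir146 and 11.4 for Mir155. Leaving out a replicate, Mir21a ranged from 1324 to 2517 CPM, Mir146 from 634 to 732 and Mir155 from 28.4 to 36.6, and the counts of Mir21a per Mir146 from 1.81 to 3.97, of Mir21a per Mir155 from 46.6 to 68.8 and of Mir146 per Mir155 from 17.3 to 25.8. Depth limits Mir155 most.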
